A study of Homo sapiens with 9 samples.

Results

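The metallothionein genes were followed over 3 doses of 5-aza-deoxycytidine (5-Aza) in HT-29 cells. The family was taken up because MT1G was among the largest rises at 10 µM, and the remaining members were selected on their gene symbols alone. There are 10 members (MT1A, MT1B, MT1E, MT1F, MT1G, MT1H, MT1M, MT1X, MT2A and MT3) among the 23284 gene symbols of the files, and each stands on 1 entry. The level of MT1G at 10 µM against 0 µM is therefore a description without a test, as is the whole comparison of 10 µM vs. 0 µM.

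HT-29 is an established human colon cancer cell line grown as a monolayer. Triplicate cultures received DMSO, the vehicle, as 0 µM 5-Aza (control), 5 µM 5-Aza or 10 µM 5-Aza for 5 days, which gives 3 biological replicates per dose of 1 cell line. The RNA was sequenced from both ends of each fragment, and the values are FPKM, a count of fragments scaled by transcript length and by library size. 5-Aza is a cytidine analog that traps DNA methyltransferases after it has entered DNA, so that methylation is lost as cells divide. DNA methylation was not measured in these libraries.

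Metallothioneins are small proteins whose cysteines bind zinc and copper, and also toxic metals such as cadmium. Their genes are switched on by metals through the zinc finger factor MTF1, which binds metal response elements in their promoters, and several also respond to glucocorticoids and oxidative stress. MT2A and the MT1 genes are made in many tissues, including the intestine, while MT3 is known mainly from the brain. Several members of the family have been described as silenced by promoter methylation in tumours.

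The 10 genes form a cluster on chromosome 16 of GRCh37 (named hg19 in the study) between 56622986 and 56718108, a span of 95.1 kb, and 9 of them lie on the plus strand. In the GENCODE models, 9 members have 3 exons, and their transcripts measure between 393 and 425 bases. The model of MT1E has 2 exons and 746 bases because it keeps an intron. Such transcripts are barely longer than a sequenced fragment, so the length correction in FPKM is steep and a single fragment gives a high value. The whole scale of these values is also high. The median of the values above 0 was between 52105 and 78724 in the 9 libraries. In bulk RNA, fewer cells that use a gene and less RNA per cell cannot be told apart.

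The coding sequences are alike but not the same. Between pairs of MT1 genes, MT1E left out, identity was 88.4% to 93.5% (median 90.9%, 21 pairs), and between MT2A and MT1 genes it was 88.7% to 94.2% (7 pairs), highest for MT1G. MT3 stood further away, at 73.4% to 77.9% (8 pairs). Whether a read of 100 bases can be placed depends on such stretches. In MT1X, 41 of the 305 windows of 100 bases (13.4%) lay within 2 mismatches of another family transcript, here the processed pseudogene MT1XP1 on chromosome 1. The numbers were 38 of 298 (12.8%) for MT1H, closest to MT1HL1. They were 25 of 302 (8.3%) for MT2A and 19 of 311 (6.1%) for MT1G, both closest to MT1X (22 and 16 of these windows). Identical windows were found in MT1H alone among the 10 members (10 windows, 3.4%), and no window of MT1A, MT1B, MT1E, MT1F, MT1M or MT3 came within 2 mismatches. The values of MT1X, MT1H, MT2A and MT1G may thus hold some reads of a near copy. MT1E entered only through the model that keeps an intron. Windows across its spliced junction were therefore not compared, either in MT1E or as near copies of other members.

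Promoters of 4 members were matched by symbol in the RefSeq table (GRCh38.p14), which gives 250 bases before and 50 bases after each gene start. The bases before the start are printed because 3 of these genes, MT2A, MT1H and MT1X, were higher at 5 µM in every replicate, while MT1B was at or near 0. Capitals mark the cores of metal response elements, TGCACNC or TGCGCNC, on either strand. A minus-strand core appears as its reverse complement.
MT2A, plus strand, chr16:56608334-56608583: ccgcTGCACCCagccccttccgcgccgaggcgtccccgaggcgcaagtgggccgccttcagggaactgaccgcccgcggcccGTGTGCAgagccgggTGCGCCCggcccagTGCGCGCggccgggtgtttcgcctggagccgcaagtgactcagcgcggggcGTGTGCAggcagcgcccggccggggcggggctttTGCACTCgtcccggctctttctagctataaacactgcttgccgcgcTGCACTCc
MT1H, plus strand, chr16:56669564-56669813: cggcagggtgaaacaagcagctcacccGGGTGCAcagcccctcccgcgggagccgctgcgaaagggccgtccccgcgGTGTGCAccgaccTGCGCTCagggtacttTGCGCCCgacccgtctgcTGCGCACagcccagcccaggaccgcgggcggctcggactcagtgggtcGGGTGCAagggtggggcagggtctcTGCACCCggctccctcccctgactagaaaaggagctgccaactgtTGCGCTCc
MT1X, plus strand, chr16:56682220-56682469: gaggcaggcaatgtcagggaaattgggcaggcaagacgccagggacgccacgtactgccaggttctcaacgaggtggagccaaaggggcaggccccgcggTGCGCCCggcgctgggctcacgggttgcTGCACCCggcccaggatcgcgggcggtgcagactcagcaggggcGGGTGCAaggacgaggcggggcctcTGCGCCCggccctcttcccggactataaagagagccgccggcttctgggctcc
MT1B, plus strand, chr16:56651636-56651885: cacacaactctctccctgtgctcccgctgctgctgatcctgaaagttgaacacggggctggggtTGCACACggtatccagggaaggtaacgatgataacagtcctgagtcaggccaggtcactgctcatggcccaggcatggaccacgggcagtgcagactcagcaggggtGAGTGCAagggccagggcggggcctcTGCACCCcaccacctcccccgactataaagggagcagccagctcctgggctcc
The promoters of MT1A, MT1E, MT1F, MT1G, MT1M and MT3 are not printed.

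Over the full 300 bases, MT2A and MT1H each held 8 matches to the core, MT1X held 4 and MT1B held 3. Of the 35116 promoters in the table, 29.6% held at least 1 match, 2.3% at least 3, 0.601% at least 4 and 0.0199% at least 8. CpG dinucleotides, the sites of DNA methylation, numbered 37 in MT2A, 26 in MT1X and 25 in MT1H, against a median of 14 over all promoters. MT1B had 7 CpG, fewer than that median. The GC content was 72.0%, 67.0%, 68.3% and 60.3% for MT2A, MT1X, MT1H and MT1B, against a median of 58.7%. The TATA box letters TATAAA were present in MT1B, MT1X and MT2A and in 7.33% of all promoters on the printed strand, and MT1H did not hold them. A match to these letters describes the sequence and does not show that a factor binds.

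**Figure D1:**
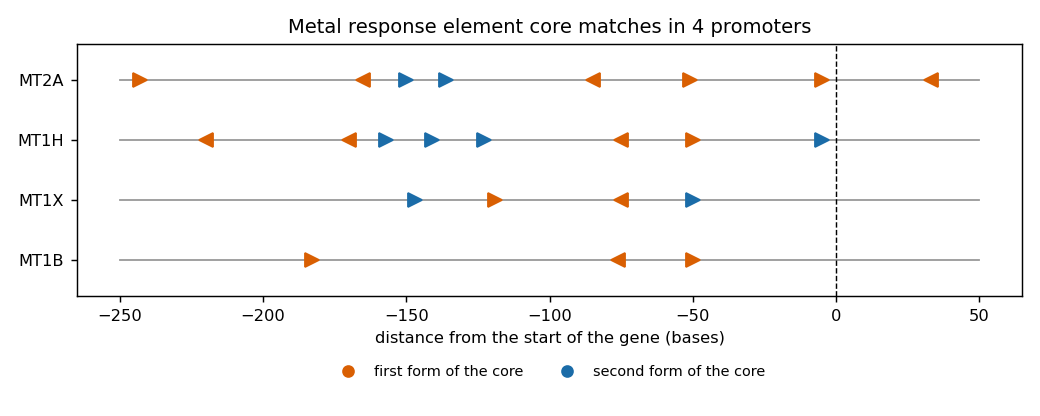
Matches to the metal response element core in 4 promoters, by distance in bases from the start of the gene (dashed line). Orange marks the first form of the core (TGCACNC) and blue the second (TGCGCNC), arrows point right on the plus strand and left on the minus strand, and a match is centred at -51 in MT2A and at -50 in MT1H, MT1X and MT1B.

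MT2A, the main human metallothionein and a common readout of free zinc, had the highest FPKM of the family at 5 µM. It is ENSG00000125148 at chr16:56642496-56643409 in GRCh37. The control FPKM was 270964, 167166 and 100823 in replicates 1, 2 and 3. At 5 µM it was 853318, 855770 and 813512. At 10 µM it was 224885, 497158 and 407916. All 3 replicates at 5 µM were higher than any other culture, and 10 µM replicate 1 lay inside the control range of deposited FPKM. The mean rose 4.68-fold from 179651 ± 85755 (SD, n = 3) to 840867 ± 23722 (SD, n = 3). On the log2(FPKM + 1) scale the difference of 5 µM vs. 0 µM was 2.34 ± 0.33 (SE), with a Benjamini-Hochberg adjusted p of 0.00254 in limma. Ranked among all gene symbols by FPKM, MT2A stood between 3778 and 7176 in the controls, between 804 and 932 at 5 µM and between 1786 and 3057 at 10 µM.

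MT1X (chr16:56716382-56718108), a widely expressed MT1 gene, followed the same order of doses. The control FPKM was 56047.8, 22537.2 and 22498.6. It reached 189728, 157627 and 155570 at 5 µM. The 10 µM cultures had 22050.1, 97674.3 and 96461.7, so that 1 replicate lay below all controls and the other 2 above them. The 5 µM mean of 167642 ± 19155 (SD, n = 3) was 4.98-fold the control mean of 33695 ± 19359 (SD, n = 3). The log2 difference was 2.45 ± 0.36 (SE; limma, Benjamini-Hochberg adjusted p = 0.003).

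MT1E (chr16:56659387-56661024), another widely expressed MT1 gene, was the highest member in the control. Its control FPKM was 398925, 314283 and 236278. The 5 µM cultures had 548463, 549799 and 517239. The 10 µM cultures had 277984, 495926 and 436702. The 5 µM replicates lay above all others, and those at 10 µM overlapped the controls. The 5 µM mean was 1.70-fold the control mean, a log2 difference of 0.80 ± 0.18 (SE), with an adjusted p of 0.0161 (limma, Benjamini-Hochberg). It passed the limit of 0.05 on the adjusted p and not the limit of a 2-fold change, and is not counted as a call. Without 5 µM replicate 1, 2 or 3 the adjusted p was 0.0642, 0.0613 or 0.0570 in limma (Benjamini-Hochberg), so passing 0.05 depended on all 5 µM replicates.

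**Figure D2:**
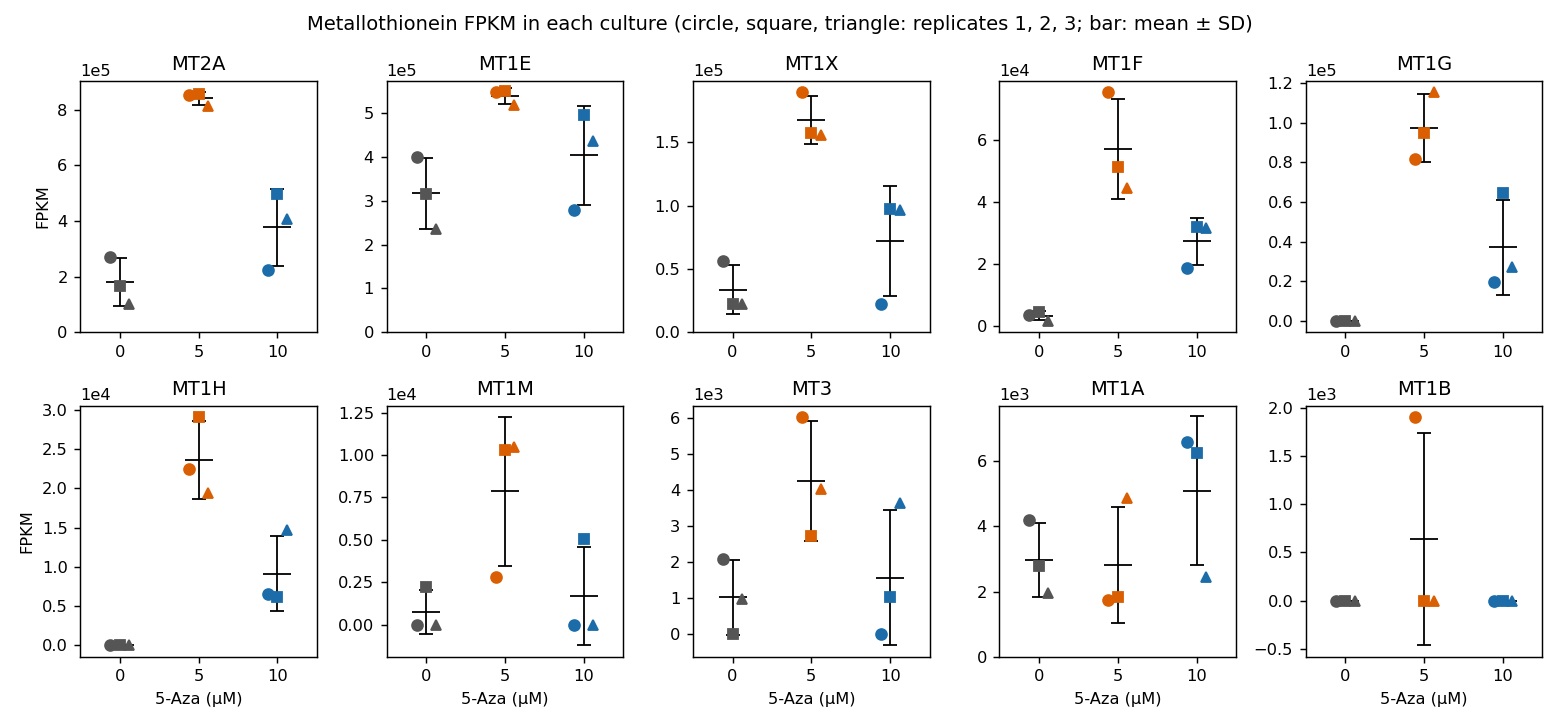
FPKM of the 10 members (linear axis, a separate scale for each gene) in the cultures at 0, 5 and 10 µM 5-Aza, with circles, squares and triangles for replicates 1, 2 and 3 and black bars for the mean ± SD. In MT2A, MT1E, MT1X, MT1F, MT1G and MT1H the 3 replicates at 5 µM lie above all cultures at 0 µM and at 10 µM, and in MT1A they do not.

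MT1F, MT1G and MT1H were near or at 0 in the control. MT1F (chr16:56691643-56694610), a zinc- and cadmium-inducible member, had control FPKM of 3352.88, 4441.18 and 1570.22. It rose to 75267.8, 51338.6 and 44299 at 5 µM. It was 18467.1, 31719.4 and 31526.7 at 10 µM. The 3 doses did not overlap, and 10 µM lay between the other groups. The 5 µM mean (56969 ± 16234, SD, n = 3) was 18.3-fold the control mean (3121 ± 1449, SD, n = 3). The log2 difference was 4.28 ± 0.42 (SE), with a limma Benjamini-Hochberg adjusted p of 0.000779. The control values of MT1F are worth an estimated 4 fragments over the 3 libraries, so the fold has a wide counting error.

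MT1G (chr16:56700642-56701977, minus strand), the gene from which the family was chosen, was listed at 0 in all 3 controls. At 5 µM its FPKM was 81633.8, 95046.5 and 115274. At 10 µM it was 19724.6, 64489.7 and 27009. Every treated culture was above 0, and the 5 µM replicates were all higher than those at 10 µM. An estimated 47, 52 and 71 fragments stood behind the 5 µM values and 6, 31 and 11 behind those at 10 µM. With the controls set at a floor of 3 fragments over the group, MT1G was at least 36.2-fold higher at 5 µM and at least 14.9-fold higher at 10 µM. No test is given for MT1G at either dose, because the control libraries were used to choose it.

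MT1H (chr16:56703726-56705041), the next gene along the cluster from MT1G, was also listed at 0 in the 3 controls. Its FPKM was 22457.2, 29086.6 and 19377.3 at 5 µM, which is worth 13, 16 and 12 estimated fragments. At 10 µM it was 6539.23, 6207.12 and 14652.3, worth 2, 3 and 6 fragments. Again each treated culture was above every control, and 5 µM was above 10 µM without overlap. MT1H was at least 8.74-fold higher at 5 µM and at least 3.42-fold higher at 10 µM, with the same floor. MT1H met the filter on low values through the treated cultures alone, and its controls have no spread. The fitted log2 change of MT1G and MT1H against 0 µM depends on the pseudocount, and neither it nor a p-value is given for that comparison.

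The lowest members rested on single fragments. MT1M (chr16:56666571-56667893), which lies between MT1E and MT1A, was at 0, 2230.4 and 0 in the control. It was at 2800.01, 10313.1 and 10469.3 at 5 µM, worth 2, 7 and 8 fragments. It was at 0, 5030.46 and 0 at 10 µM. The 5 µM replicates were all above the controls, and the limma test gave a Benjamini-Hochberg adjusted p of 0.0595. MT3 (chr16:56622986-56625000), the member known from the brain, had 2069.35, 0 and 969.121 in the control. It had 6021.85, 2715.9 and 4020.69 at 5 µM. The 10 µM values were 0, 1030.36 and 3648.35. The adjusted p was 0.204 for 5 µM vs. 0 µM (limma, Benjamini-Hochberg), although the 5 µM replicates again lay above all controls.

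MT1A (chr16:56672578-56673999), a cadmium- and zinc-inducible member, showed no rise at 5 µM, on very few fragments. Its FPKM was 4178.07, 2767.1 and 1956.67 in the control, worth 1 fragment in each library. It was 1736.89, 1827.82 and 4870.71 at 5 µM. The 10 µM values were 6574.86, 6240.94 and 2455.36. The groups overlapped at all doses. The log2 difference of 5 µM vs. 0 µM was -0.18, with a 95% interval from -1.49 to 1.13 and a limma Benjamini-Hochberg adjusted p of 0.801. This interval does not reach the differences of MT2A, MT1X and MT1F, but it leaves out counting error. With at most 3 fragments in any library, whether MT1A changed as they did cannot be decided. MT1B (chr16:56685798-56687116) was listed at 0 in 8 cultures and had 1902.28 in 5 µM replicate 1, with an adjusted p of 0.403 in limma (Benjamini-Hochberg).

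In the comparison of 5 µM vs. 0 µM, all 10 members passed the filter on low values, MT1B through 1 culture and MT1G and MT1H through the 5 µM group alone. MT1G is left out of the counts. A call required that the adjusted p (Benjamini-Hochberg) in limma did not exceed 0.05 and a change of more than 2-fold. MT1F, MT1X and MT2A passed both limits, and MT1H did so with all controls at 0, which makes 4 of 9 members where 14.1% of the 20051 genes tested were called up. The call of MT1H is not read as support, since MT1H passed the filter through the group where it is high. Of the 9, 0 were called down, where 2.17% of all genes were. At an unadjusted p under 0.05, 6 of the 9, MT1H among them, were higher and 0 lower, where 26.6% and 21.9% of all genes were. The median log2 difference of the 9 was 3.63, the fitted value of MT1B, which rests on 1 culture and on the pseudocount. Over the 5 members above 0 in all 9 cultures it was 2.34, and over all genes tested 0.14. For MT1E, MT1F, MT1M, MT1X, MT2A and MT3 the 5 µM replicates all lay above the controls. MT1H did so too, but entered through the 5 µM group alone. The share of all genes that did so was not determined, so nothing about the family is read from this. The exact permutation test (2-sided) gave MT1E, MT1F, MT1M, MT1X, MT2A and MT3 each p = 0.1, the smallest value that 3 against 3 replicates allow. Any gene with separate groups receives this value, so it repeats the separation above and adds no evidence. MT1A had p = 0.8 in that permutation test, and the groups of MT1B were not separate either. The comparison of 5 µM vs. 0 µM uses the same control libraries as the one from which MT1G was chosen.

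From 5 µM to 10 µM most members had lower means, and none of those tested passed both limits. The 10 µM mean of MT2A was 376653 ± 138803 (SD, n = 3), and the 5 µM mean was 2.23-fold that value. The log2 difference of 10 µM vs. 5 µM was -1.23 (95% interval from -1.90 to -0.57), with a Benjamini-Hochberg adjusted p of 0.0511 in limma. Without 10 µM replicate 1 it was -0.90. MT1X differed by -1.50 (adjusted p = 0.159), MT1H by -1.47 (adjusted p = 0.0704), MT1F by -1.07 (adjusted p = 0.0822) and MT1E by -0.46 (adjusted p = 0.242) in the same limma test. Without 10 µM replicate 1 the difference was -0.78 for MT1X, -0.81 for MT1F and -0.21 for MT1E. MT1G, described without a test, differed by -1.57, its 5 µM mean being 2.62-fold that at 10 µM. In MT1E, MT1F, MT1H, MT1X and MT2A, and in MT1G, which is only described, every 10 µM replicate lay below every 5 µM replicate. The share of all genes that did so was not determined, so nothing about the family is read from it. MT1A had the opposite sign, 0.90 (adjusted p = 0.374, limma), with overlapping groups, and the adjusted p was 0.160 for MT1M, 0.332 for MT3 and 0.539 for MT1B.

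Of the 9 members tested for 10 µM vs. 5 µM with limma, 0 were called down, while 4.82% of the 20085 genes were, and 0 were called up against 0.129% of all genes. At an unadjusted p under 0.05, 5 of the 9 were lower and 0 higher, where 22% and 2.84% of all genes were. The median log2 difference was -1.47 over these 9 members and -0.31 over all genes tested. The member values include MT1B, MT1M and MT3, which were at 0 in some or all 10 µM cultures and so depend on the pseudocount. Over the 5 members above 0 in all 9 cultures the median was -1.07, the value of MT1F. The whole distribution was shifted: among the 16239 genes above 0 in all 6 cultures the median log2 difference was -0.24, and scaling by the median of ratios brought it to -0.04. With that scaling MT2A differed by -1.03 and passed both limits (limma, Benjamini-Hochberg adjusted p = 0.0397), and MT1F differed by -0.87. The call of MT2A thus depended on how the libraries were scaled.

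**Figure D3:**
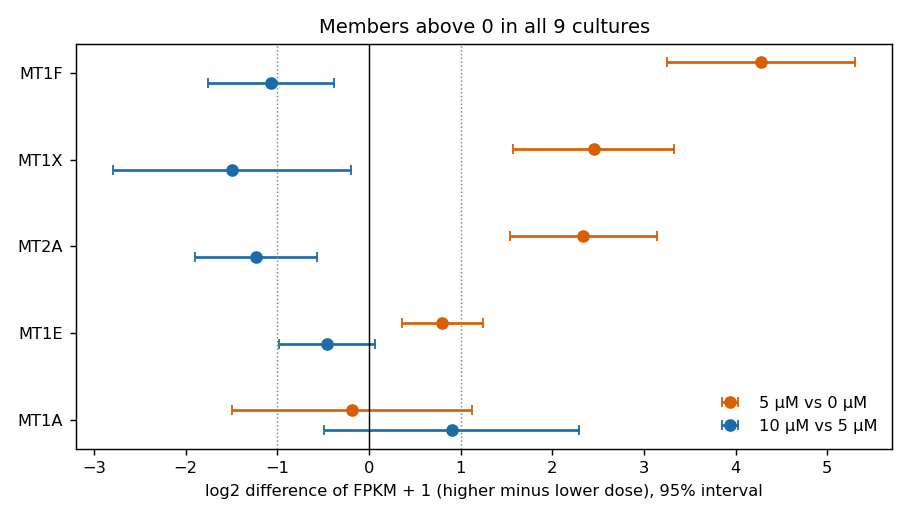
Difference in log2(FPKM + 1), higher minus lower dose, with 95% intervals for the 5 members above 0 in all 9 cultures; orange is 5 µM vs. 0 µM, blue is 10 µM vs. 5 µM, and dotted lines mark a 2-fold change. MT1F, MT1X and MT2A lie right of the upper dotted line in orange (4.28, 2.45 and 2.34) and between -1.50 and -1.07 in blue, while the intervals of MT1A include 0 in both comparisons.

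The comparison of 10 µM vs. 0 µM is given as a description. MT1F, MT1G and MT1H were above all controls in every 10 µM replicate. Leaving out MT1G, 8 members entered, and MT1F and MT1H would be called up (2 of 8, with the controls of MT1H at 0), where 4.07% of 18928 genes were called up and 3.4% down. These shares stand for 771 genes up and 644 down, and with median-of-ratios scaling the numbers were 1125 and 284, so nothing is read from the count of members. MT1F was 8.73-fold the control mean. The 10 µM mean of MT2A was 2.10-fold that of the control (log2 difference 1.11), and those of MT1X and MT1E differed by 0.96 and 0.34 on the log2 scale. For these 3 genes the groups overlapped through 10 µM replicate 1 in deposited FPKM. After median-of-ratios scaling MT2A was 269236 in that replicate, above the highest control (246023), while MT1X and MT1E still overlapped. Without that library the log2 differences were 1.44 for MT2A, 1.67 for MT1X and 0.59 for MT1E. MT1A differed by 0.72, MT1M by 0.39 and MT3 by 0.30, all with overlapping groups, and MT1B was at 0 in both.

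The 10 µM replicates were uneven. Replicate 1 was the lowest of the 3 for MT2A, MT1E, MT1X, MT1F and MT1G. It also had the smallest median-of-ratios scale factor of the 9 libraries, 0.835, followed by 10 µM replicate 3 at 0.857, while the remaining 7 were between 1.00 and 1.10. Values with this scaling are given for some members. With it, the log2 differences of 10 µM vs. 5 µM were -1.29 for MT1X, -1.27 for MT1H and -0.25 for MT1E. Those of 10 µM vs. 0 µM were 1.35 for MT2A, 1.20 for MT1X and 0.58 for MT1E.

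Summed over the 10 members, the FPKM was 735537, 513425 and 364096 in the control replicates. The sum was 1783330, 1753520 and 1684630 at 5 µM. It was 576225, 1205480 and 1020370 at 10 µM, with replicate 1 inside the control range. Scaling changed this last point. After median-of-ratios scaling the sum in 10 µM replicate 1 was 689865, against a highest control of 667834, and relative to the summed FPKM of its library it was also above all controls. Both sums include MT1G, from which the family was chosen. MT1G was at 0 in the controls and at 19724.6 (deposited FPKM) in that replicate. Nothing is therefore read from the order of this replicate and the controls after scaling. The make-up of the sum also differed between doses. MT2A and MT1E together held 91.1% to 93.8% of it in the control, 78.6% to 80.2% at 5 µM and 82.4% to 87.3% at 10 µM. Of the sum without MT1G, MT1F and MT1H together held 0.431% to 0.865% in the control, 4.06% to 5.74% at 5 µM and 3.32% to 4.65% at 10 µM. These are shares of per-length values and not of molecules.

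**Figure D4:**
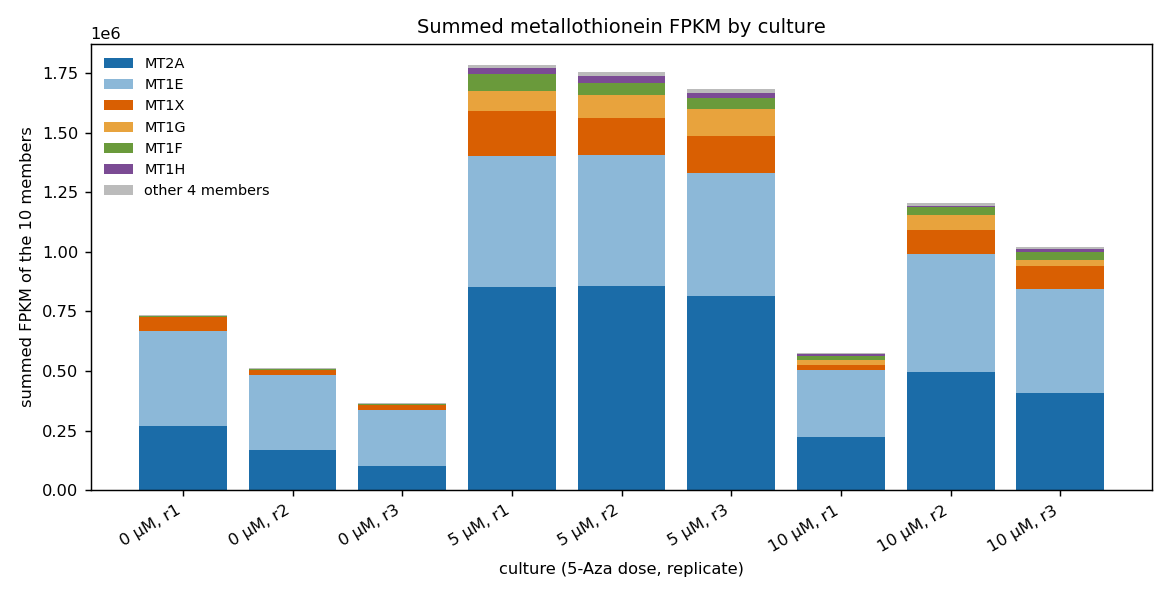
Summed FPKM of the 10 members in each of the 9 cultures (linear axis from 0), stacked by gene. The 3 bars at 5 µM reach between 1684630 and 1783330, above all others, 10 µM replicate 1 (576225) is within the control range on this unscaled axis, and MT1G, MT1F and MT1H are visible at 5 and 10 µM and not in the control.

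MT2A and MT1E changed places with dose. The ratio of MT2A to MT1E was 0.679, 0.532 and 0.427 in the control, so MT1E was higher in each culture although the ranges of the genes overlapped between cultures. At 5 µM the ratio was 1.56, 1.56 and 1.57, and the ranges were separate. At 10 µM it was 0.809, 1.00 and 0.934, and the genes did not differ beyond the spread between replicates. MT1E values are not whole multiples of 1 step, unlike those of MT2A, so its length term is not known and the ratio compares doses better than it compares the genes.

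The order of mean FPKM in the control was MT1E, MT2A, MT1X, MT1F, MT1A, MT3 and MT1M, with MT1B, MT1G and MT1H at 0. There the ranges of MT1E and MT2A overlapped, as did those of MT1F, MT1A and MT3 with their neighbours, and MT2A, MT1X and MT1F were separate from each other. At 5 µM the order was MT2A, MT1E, MT1X, MT1G, MT1F, MT1H, MT1M, MT3, MT1A and MT1B. The first 7 of these had separate ranges, and the last 4 overlapped with a neighbour. At 10 µM the order was MT1E, MT2A, MT1X, MT1G, MT1F, MT1H, MT1A, MT1M, MT3 and MT1B. Here the ranges of MT1X, MT1G and MT1F overlapped in turn, and MT1F was separate from MT1H.

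A further 12 symbols of the family, mostly pseudogenes, were looked up, of which 6 were in the files. MT1L (chr16:56651475-56652592), a pseudogene between MT2A and MT1E, was at 0 in all controls and at 0 in all 10 µM cultures. At 5 µM its FPKM was 11938.2, 10992.8 and 13949.1, worth 8, 7 and 10 fragments. It was at least 5.33-fold higher at 5 µM than in the control and at least 5.71-fold higher than at 10 µM. It entered both comparisons through the 5 µM group alone, and no test is given for it. MT1DP was above 0 in 2 cultures (3927.74 in 5 µM replicate 3 and 2623.39 in 10 µM replicate 2), and MT1IP was at 199.267 in control replicate 3 and 0 elsewhere. MT4, the member of squamous epithelia, and MT1JP were listed at 0 throughout. MTL5, which is metallothionein-like by name and lies elsewhere, was between 20262.9 and 28352.8 and was not called in either comparison.

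The genes with the pattern most like MT2A over the 9 cultures were ranked by Pearson's r of log2(FPKM + 1) among 15272 genes above 0 in each. They were CTSL1 (r = 0.991), MX1 (r = 0.989), IFI6 (r = 0.988), TRIM21 (r = 0.986) and CYB5R2 (r = 0.986). CTSL1 encodes the lysosomal protease cathepsin L, MX1 and IFI6 are interferon-induced genes, and TRIM21 is a cytosolic antibody receptor. The FPKM of MX1 was 277353 to 620180 in the control, 1572800 to 1670770 at 5 µM and 694472 to 1161900 at 10 µM. For MT1X they were DLL3 (0.991), FAM25C (0.979), FAM25G (0.979), POP5 (0.976) and CLDN23 (0.976). FAM25C and FAM25G carry the same values up to a fixed factor and count as 1 gene here. Within the family r was 0.964 for MT1E with MT1X, 0.960 for MT1E with MT2A, 0.953 for MT1X with MT2A and 0.914 for MT1F with MT2A, and between -0.20 and 0.02 for MT1A with MT1E, MT1F, MT1X and MT2A. All points share the 3 doses and the scaling of their libraries, so the correlations describe these 9 cultures. MT1X and MT2A also have stretches within 2 mismatches of each other, and the part of shared reads in their r was not tested.

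MTF1, the zinc sensor that drives metallothionein transcription, had nearly the same mean at 0 and 5 µM. It went from 73728 ± 4614 FPKM to 71600 ± 4956 FPKM at 5 µM (SD, n = 3), a log2 difference of -0.04 (limma, Benjamini-Hochberg adjusted p = 0.719). SLC30A1, a zinc exporter of the plasma membrane and a target of MTF1, fell instead. It went from 318572 ± 7244 to 150701 ± 11341 (SD, n = 3), a log2 difference of -1.08 ± 0.07 (SE; limma, Benjamini-Hochberg adjusted p = 0.000286), and was at 135874 ± 40413 at 10 µM. SLC39A10, a zinc importer held down by MTF1, differed by 0.34 (adjusted p = 0.0793, limma). The direction of SLC30A1 was thus opposite to that of MT2A and MT1X at 5 µM.

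Of the 10 zinc exporters, 4 rose and 1 fell at 5 µM, against 14.1% and 2.17% of all genes. SLC30A2 rose from 4661 ± 654 to 11910 ± 2361 (log2 difference 1.34, limma Benjamini-Hochberg adjusted p = 0.00608), and SLC30A4 by 1.46 (adjusted p = 0.0343, limma). SLC30A3 and SLC30A8, the exporter of insulin granules, were at 0 in the control and averaged 2095 ± 994 and 227 ± 73.2 at 5 µM. Of the 14 zinc importers, 2 rose and 0 fell by limma. At an unadjusted p under 0.05, 5 were higher and 2 lower, against 26.6% and 21.9% of all genes. SLC39A8, a carrier of zinc and manganese, rose from 30114 ± 1708 to 76826 ± 10498 (SD, n = 3; log2 difference 1.34, limma Benjamini-Hochberg adjusted p = 0.000679), and SLC39A12 was at 0 in the control and 209 ± 65.5 at 5 µM. SLC30A3, SLC30A8 and SLC39A12 passed the filter through the 5 µM group alone, so nothing is read from their calls. The median log2 difference was 0.83 over the exporters and 0.01 over the importers, against 0.14 over all genes. The exporter median includes SLC30A3 and SLC30A8, whose fitted values depend on the pseudocount because their controls were at 0. Nothing about the exporters as a group is read from it.

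Among 12 genes of copper handling, limma called 0 in either direction at 5 µM, with 1 higher and 2 lower at an unadjusted p under 0.05 (26.6% and 21.9% of all genes). The median log2 difference was 0.11. SLC31A2, a copper carrier of endosomes, was just within the 2-fold limit (38359 ± 2021 to 76408 ± 2818, SD, n = 3; log2 difference 0.99, limma Benjamini-Hochberg adjusted p = 0.000496). The 7 targets of NRF2, the factor of the oxidative stress response, also had 0 calls by limma (1 higher and 3 lower at an unadjusted p under 0.05; median -0.06). NQO1, a quinone reductase, differed by -0.87 (adjusted p = 0.00476) and HMOX1, a heme oxygenase that metals and oxidants induce, by 0.50 (adjusted p = 0.063) in that test.

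Of the 6 genes tested in the glucocorticoid list, 1 was called up and 1 down at 5 µM, against 14.1% and 2.17% of all genes, too few to describe the list. NR3C1, the glucocorticoid receptor, rose from 274 ± 128 to 7152 ± 1487 (SD, n = 3; log2 difference 4.78, limma Benjamini-Hochberg adjusted p = 0.000919). TSC22D3, a target of that receptor, fell by 1.35 on the log2 scale (adjusted p = 0.000446, limma). At 10 µM NR3C1 was at 658 ± 263, and its log2 difference of 10 µM vs. 5 µM was -3.50 (limma, Benjamini-Hochberg adjusted p = 0.0095). The median of the list at 5 µM was 0.17.

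Of 9 genes beside the cluster on chromosome 16, 2 were called up and 0 down by limma at 5 µM, against 14.1% and 2.17% of all genes. At an unadjusted p under 0.05, 2 were higher and 4 lower (26.6% and 21.9% of all genes). GNAO1, a G protein subunit of neurons, rose from 582 ± 414 to 4016 ± 1574 (SD, n = 3; log2 difference 3.05, limma Benjamini-Hochberg adjusted p = 0.0205). SLC12A3, a kidney salt transporter, was at 0 in the control and 193 ± 122 at 5 µM. It passed the filter through the 5 µM group alone, so nothing is read from its call. The median of the neighbours was 0.01, and 7 of the 9 were not called. From 5 µM to 10 µM the only calls in the lists of transporters, stress genes and neighbours were down, namely SLC30A8, SLC39A12, NR3C1 and SLC12A3. All but NR3C1 were at 0 at 10 µM and passed the filter through the 5 µM group alone. In that comparison 0 of 12 copper genes and 0 of 7 NRF2 targets were called by limma, with 4 and 1 lower at an unadjusted p under 0.05 (22% of all genes).

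**Figure D5:**
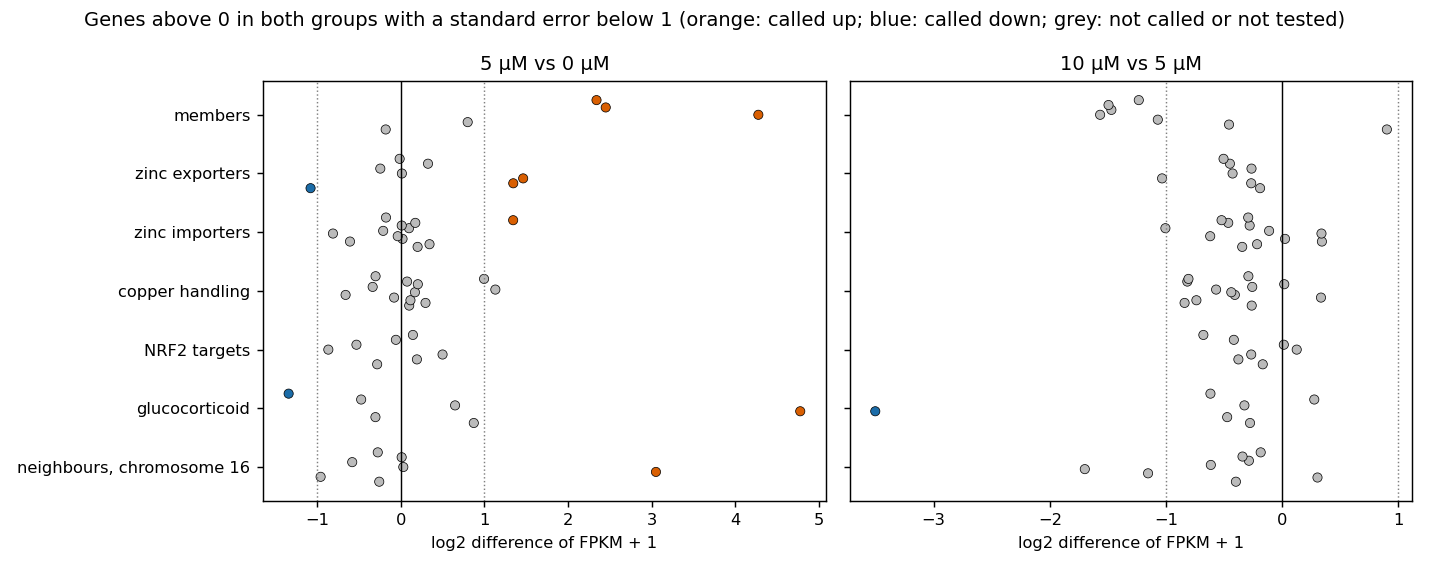
Differences in log2(FPKM + 1) for the members and 6 lists, each point a gene above 0 in both groups with a standard error below 1; the left panel is 5 µM vs. 0 µM, the right 10 µM vs. 5 µM, and dotted lines mark a 2-fold change. MT2A, MT1X and MT1F are orange (called up) on the left at 2.34, 2.45 and 4.28, SLC30A1 and TSC22D3 are blue (called down), and on the right NR3C1 is the 1 blue point.

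The libraries were checked against their labels. All 9 colon epithelial markers were above 0 at each dose, and their summed FPKM was 82850300 to 99288200 in the control, 35201200 to 39862800 at 5 µM and 27543800 to 48296600 at 10 µM. The 3 leukocyte markers summed to 36279.5 to 50162.8 over all cultures, with CD3E at 0 in the control. The 6 stromal and endothelial markers summed to 7732.67 to 12416.5 in the control, 41882.3 to 54652 at 5 µM and 21406.6 to 28486.7 at 10 µM, with DCN at 0 at 5 µM and COL1A2 at 0 at 10 µM. The epithelial sum was lower and the stromal sum higher in all treated cultures. KRT8 and KRT18 made up most of the epithelial sum. KRT8 was between 35211200 and 42003400 in the control and between 11913700 and 13094800 at 5 µM. KRT18, KRT20, LGALS4, CDX2 and VIL1 were likewise lower in every 5 µM culture than in any control. CEACAM5 was higher instead, between 177026 and 216821 in the control and between 519966 and 626365 at 5 µM. CDH1 (2101680 to 2157600 and 1851910 to 2253480) and EPCAM (3224010 to 3552260 and 2585490 to 3437830) overlapped. COL1A1 made up most of the stromal sum, and PECAM1 at 10 µM (2747.15 to 3395.17) lay within its control range. The part of these markers in the member values was not tested. Relative to control replicate 1, the normalizer of a library, estimated from the step of 1 fragment, was 1.51 and 2.135 in the other control replicates, 2.29 to 2.57 at 5 µM and 1.27 to 2.01 at 10 µM. A single fragment thus weighed most in control replicate 1.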

How the data were processed

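RNA of 9 HT-29 cultures (3 per dose) was sequenced as paired 100 base reads. Reads were filtered (FASTX-Toolkit), aligned (TopHat, hg19) and turned into FPKM per gene (Cufflinks) by the authors, and the deposited files list FPKM by gene symbol. The annotation version is not given in the sources used here. The count test planned for raw counts was not used, since no counts are in these files.

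Values of repeated symbols were summed (each member has 1 entry) and transformed as log2(FPKM + 1). Genes with a value of at least 10 in a culture of either group were tested with limma 3.58.1 (lmFit, eBayes with trend) under R 4.3.3 on the 6 samples compared. A call needed an adjusted p (Benjamini-Hochberg over all genes tested) not above 0.05 and a log2 difference above 1 or below -1. The script was tested on simulated data. An exact 0 can be a failed estimate, and such genes are described as listed at 0.

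MT1G, from which the family was chosen, is given without a test in all comparisons. Fragments were estimated from the step of the low values. At 12 microRNA genes of 110 bases all 46 values above 0 were whole multiples of 1 step per library (tolerance 0.01), as were the values of 8 of 10 members. The steps of MT1X and MT3 were 0.479 and 0.495 of that of MT1A, so a multiple there may be part of a fragment, and none was determined for MT1E and MT1B. Depth limits the precision of all members but MT1E, MT2A and MT1X, and the limma test does not model counting error. The floor of 3 fragments covers counting error only.

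All 10 members are named. Of the gene lists, every gene present was counted, and genes past both limits or with a high mean could be named, and MT2A and MT1X each had the 5 most correlated genes named. SLC31A2 and HMOX1 were named after their values were seen. Members and lists were chosen with earlier results of these data known. The replicates are called biological in the labels, and the 36 pairs of files shared at most 1 identical value above 0. Positions come from GENCODE v44lift37 (GRCh37) and promoters from RefSeq (GRCh38.p14), 4 of 10 members matched. Alternatives tried were other pseudocounts (0.1 and 1000), no or a stricter filter, no fold limit, a joint fit of the 9 samples, a replicate block, median-of-ratios scaling, limma's treat, the largest entry of repeated symbols and each replicate left out. Microarray and qRT-PCR data were not analysed here.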

Additional observations from a re-analysis of the deposited data

How the results depend on the processing

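MT1G is left out of all counts. MT1H, with all controls at 0, is among the members counted against 0 µM. The count of members called up at 5 µM vs. 0 µM (4 of 9) was between 4 and 6 under the alternatives, and that for 10 µM vs. 0 µM (2 of 8) was 3 with a joint fit or median-of-ratios scaling and 1 with limma's treat. The count called down at 10 µM vs. 5 µM (0 of 9) was less stable. It was 1, MT2A, with a pseudocount of 1000 (limma, Benjamini-Hochberg adjusted p = 0.0376), with at least 10 required in every replicate of a group (adjusted p = 0.0443) and with median-of-ratios scaling (adjusted p = 0.0397). Leaving out each replicate in turn gave between 0 and 3. The count of 3 (MT1F, MT1M and MT2A) came without 10 µM replicate 2, and 1 (MT1H) without 10 µM replicate 3. At 5 µM vs. 0 µM these fits gave 4 or 5, the latter without control replicate 2, when MT1M passed. Over all genes, dropping the fold limit gave 4263 up and 3553 down at 5 µM vs. 0 µM, and limma's treat gave 1463 and 70. For 10 µM vs. 5 µM, calls down ran from 176 to 1873 with a replicate left out. For 10 µM vs. 0 µM the main 771 up and 644 down became 1125 and 284 with median-of-ratios scaling, 819 and 1500 without 10 µM replicate 2, and 337 and 228 without 10 µM replicate 3. Signs turned only for genes on few fragments. MT1A at 5 µM vs. 0 µM was 0.10, 0.08 and 0.04 (log2) without control replicate 1, 5 µM replicate 1 and 5 µM replicate 2, with a lowest value of -0.67 without 5 µM replicate 3. For 10 µM vs. 0 µM, MT1M was -1.46 without control replicate 1 or 3 and -3.71 without 10 µM replicate 2, with a highest value of 4.10 without control replicate 2. In that comparison MT3 was -3.19 without control replicate 2, -1.06 without 10 µM replicate 2 and -1.97 without 10 µM replicate 3, with a highest value of 3.94 without 10 µM replicate 1. The cause was not tested. With the replicate number as a block, 5 members (MT1M added, limma adjusted p = 0.0487) were called up at 5 µM vs. 0 µM, 0 down at 10 µM vs. 5 µM and 2 up at 10 µM vs. 0 µM. Over all genes that block moved the calls for 10 µM vs. 5 µM to 11 up and 407 down. Samples with the same number did not deviate together (correlations from -0.07 to 0.09 over 9 pairs, and from -0.16 to 0.10 over 18 pairs with different numbers), so the pairing rests on the number alone. Of the single-member values, 134 of 5 µM vs. 0 µM and 135 of 10 µM vs. 5 µM kept their direction and stayed called or uncalled, and 5 and 7 were newly called. An uncalled value such as MT1E could still cross the limit on the adjusted p alone. For 10 µM vs. 0 µM, described without a test, 118 values moved by less than the spread between replicates, 2 moved by more and 6 turned sign.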
